A study of Mus musculus with 4 samples.

Results

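Glycolysis and hypoxia response genes were followed in infarcted mouse hearts with and without endothelial S1pr1. The group is a list of 38 genes for glucose and lactate transport, the glycolytic enzymes, the kinases that steer them, glycogen turnover and the oxygen-sensing pathway. Probes were assigned to these genes through the RefSeq accession that the array file gives, and the brightest probe stood for a gene. All 38 genes had a probe that passed the filter on dim signals, among 15955 named genes and 22931 features tested in all, and 37 were well above background on every array. Within the list, 5 isoforms of striated muscle (Pfkm, Pgam2, Eno3, Slc2a4 and Pygm) were set against the 33 other genes.

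The samples were hearts of male mice taken on day 5 of a myocardial infarction made by tying off the left anterior descending branch of the coronary tree. The WT group held replicates 1 and 3, and the KO group replicates 3 and 4, named VE-Cad-Cre-S1pr1 fl/fl, in which the VE-cadherin promoter drives a Cre recombinase that should delete floxed S1pr1 in endothelial cells. Both groups carried the infarct, and no sham-operated heart is analysed here. Strain and age are not given in the sources used here, nor whether the WT mice carried the floxed allele or the Cre, which part of the heart was taken, or whether the arrays come from different hearts. The p-values therefore measure only a spread between samples that may be technical. Total RNA was labelled with Cy3 and read on 4 Agilent 1-colour arrays of 1 slide, scanned once. Each array had its own position on that slide, with the WT arrays at positions 4 and 3 and the KO arrays at 2 and 1, so position and genotype cannot be told apart.

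Glycolysis splits glucose into pyruvate in the cytosol, and lactate dehydrogenase turns pyruvate into lactate when it is not burned in mitochondria. Striated muscle uses its own isoforms of several of these enzymes, while most other cells use the liver, brain or widely expressed forms. The healthy adult heart draws most of its energy from fatty acids, and glucose is taken up there largely through the insulin-responsive transporter encoded by Slc2a4. When oxygen is short, the prolyl hydroxylases encoded by the Egln genes slow down, the factor HIF-1 (Hif1a) is no longer destroyed, and genes for glucose transporters, glycolytic enzymes and lactate export are switched on.

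The promoter windows of 5 genes are shown. Pgam2 and Eno3 are muscle isoforms, Pgam1 is the counterpart of Pgam2 outside muscle, and Slc16a3 and Egln3 are targets of HIF-1. As described below, Pgam2, Eno3 and Egln3 were lowest on WT replicate 1, while Pgam1 and Slc16a3 were highest there. The windows run from 250 bases before to 50 bases after the start of the gene, come from RefSeq on GRCm38.p6, and are read 5′ to 3′ on the strand of the gene. They lie at chr11:5803747-5804046, minus strand (Pgam2), chr11:70656926-70657225, plus strand (Eno3), chr19:41911621-41911920, plus strand (Pgam1), chr11:120948817-120949116, plus strand (Slc16a3) and chr12:54203825-54204124, minus strand (Egln3). Capitals mark the E-box CANNTG, bound by muscle and other helix-loop-helix factors, in Pgam2 and Eno3.
Pgam2: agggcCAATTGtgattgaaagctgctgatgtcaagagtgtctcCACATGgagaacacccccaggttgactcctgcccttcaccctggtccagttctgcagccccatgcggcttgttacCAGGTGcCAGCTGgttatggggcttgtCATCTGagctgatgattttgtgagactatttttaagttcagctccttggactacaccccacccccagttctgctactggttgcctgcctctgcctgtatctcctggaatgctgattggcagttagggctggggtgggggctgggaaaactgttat
Eno3: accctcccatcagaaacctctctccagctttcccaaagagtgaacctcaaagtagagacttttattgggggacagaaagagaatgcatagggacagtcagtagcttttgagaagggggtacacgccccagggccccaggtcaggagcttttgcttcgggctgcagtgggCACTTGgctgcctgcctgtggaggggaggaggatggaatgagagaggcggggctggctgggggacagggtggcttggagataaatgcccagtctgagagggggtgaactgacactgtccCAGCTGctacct
In the next windows capitals mark ACGTG or GCGTG on either strand, the core of the HIF binding site.
Pgam1: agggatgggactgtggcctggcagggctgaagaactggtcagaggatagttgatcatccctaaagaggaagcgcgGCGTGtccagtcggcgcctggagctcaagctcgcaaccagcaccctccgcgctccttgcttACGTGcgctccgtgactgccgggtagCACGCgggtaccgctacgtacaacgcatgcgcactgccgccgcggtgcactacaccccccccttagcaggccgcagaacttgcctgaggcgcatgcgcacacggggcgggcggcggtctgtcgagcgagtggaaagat
Slc16a3: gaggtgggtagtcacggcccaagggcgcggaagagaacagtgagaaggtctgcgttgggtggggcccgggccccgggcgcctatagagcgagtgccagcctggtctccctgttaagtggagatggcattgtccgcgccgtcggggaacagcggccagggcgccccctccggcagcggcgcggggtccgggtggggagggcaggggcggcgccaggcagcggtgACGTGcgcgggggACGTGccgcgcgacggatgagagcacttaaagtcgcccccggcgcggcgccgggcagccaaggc
Egln3: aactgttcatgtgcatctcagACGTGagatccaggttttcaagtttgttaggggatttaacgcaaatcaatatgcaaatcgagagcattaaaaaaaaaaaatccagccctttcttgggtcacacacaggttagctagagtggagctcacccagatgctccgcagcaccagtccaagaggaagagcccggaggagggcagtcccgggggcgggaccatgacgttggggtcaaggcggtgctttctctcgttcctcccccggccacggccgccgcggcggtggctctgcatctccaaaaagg
The Pgam2 window held 5 E-boxes, 0 HIF cores and 1 MEF2 box, the site of a muscle transcription factor. The Pgam1 window held 0 E-boxes and 3 HIF cores. Slc16a3 had 2 HIF cores and 0 E-boxes, Egln3 had 1 HIF core and 2 E-boxes, and Eno3 had 1 HIF core and 2 E-boxes. Of all 32851 RefSeq windows of this length, 43.8% held a HIF core, 72.3% an E-box and 3.19% a MEF2 box. At least 2 HIF cores were held by 20.6%, at least 2 E-boxes by 39.6% and at least 4 E-boxes by 6.49%. Windows matched 35 of the 38 genes, with 53 windows in all, of which 41 (77.4%) held a HIF core and 39 (73.6%) an E-box; CACGTG counts as both, and windows of 1 gene can overlap. The muscle isoforms had 7 windows over 4 genes, of which 5 held a HIF core and 6 an E-box, so the 2 motifs did not separate them. A match is a run of letters and was not tested as a binding site.

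S1pr1 was checked first. It was at 0.43 and 0.95 in WT and at -2.69 and -2.30 in KO, a difference of -3.19 (SE 0.38; limma adjusted p = 0.740), and whether its probe lies in the deleted part was not determined here. Levels throughout are log2 processed signals relative to the 75th percentile of the same array, and differences are KO minus WT in log2 units. The heart label was checked with 16 ventricular cardiomyocyte markers, and all 16 were well above background on every array. WT replicate 1 had the smallest share of spots well above background, 55.4%, against 69.9% to 74.0% on the other arrays. The processed signal of its negative control spots also varied most, with an SD of 9.84. This SD was 3.95 on WT replicate 3, 0.99 on KO replicate 3 and 0.85 on KO replicate 4.

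No member of the list reached the threshold of the test of KO against WT. limma called 0 of the 38 genes at an adjusted p under 0.05, and 0 of all 22931 features (0%). Without adjustment 0 of the 38 genes had a p under 0.05, against 2.76% of all features, and the smallest adjusted p among the 38 was 0.740. Leaving out WT replicate 3, which makes WT replicate 1 the lone WT array, left 15 of the 38 genes with an unadjusted p under 0.05, against 18.5% of all features, and 0 called. The mean was higher in KO for 26 genes and lower for 12, with a median difference of 0.49, while 54.8% of all features were higher, with a median of 0.07 (-0.04 when arrays were scaled to their median, a shift of 0.11). Without WT replicate 1 these counts were 23 and 15, and 57.5% of all features were higher in KO. In the pair of arrays numbered 3, 11 of the 38 genes were higher in KO, against 10439 of all 22931 features. The genotypes did not overlap for 14 of the 38 genes (7 with KO above WT and 7 below), against 34.4% of all features (18.3% above and 16.1% below). With 2 arrays against 2, an exact permutation test of a single value cannot give a p below 0.333.

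**Figure D1:**
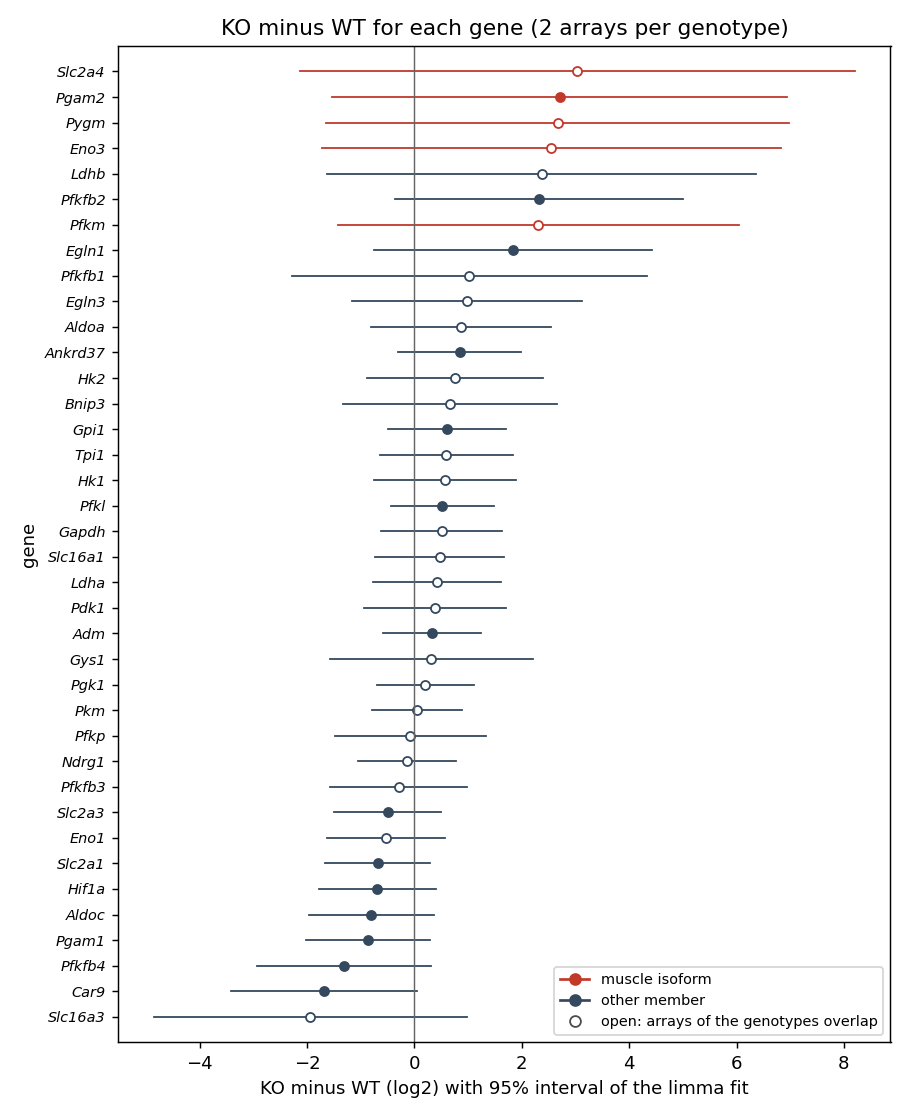
KO minus WT difference of each of the 38 genes (points, log2 units) with the 95% interval of the limma fit (lines), 2 arrays per genotype; red marks muscle isoforms and open points mark genes whose genotypes overlap. The muscle isoforms lie between 2.31 and 3.04, and the interval of every gene includes 0.

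The muscle isoforms and Ldhb had the widest ranges of the 38 genes over the arrays, and the difference lay mainly between WT replicate 1 and the other arrays, including the other WT array. Slc2a4, which encodes the insulin-responsive glucose transporter GLUT4, was at -0.04 on WT replicate 1 and at 5.42 on WT replicate 3, against 5.06 and 6.40 on KO replicates 3 and 4. WT replicate 3 lay between the KO arrays, so the genotypes overlapped. WT replicate 3 exceeded WT replicate 1 by 44.1-fold, and the KO minus WT difference of 3.04 (SE 1.93) had a 95% interval from -2.14 to 8.21.

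Pgam2, the muscle phosphoglycerate mutase, was at -0.87 and 3.66 in WT and at 3.82 and 4.38 in KO. Both KO arrays lay above both WT arrays, by 0.16 at the nearest. The WT mean was 1.40 ± 3.21 and the KO mean 4.10 ± 0.40 (SD over 2 arrays), and they differed by 2.70 (SE 1.58). It was the only muscle isoform whose genotypes did not overlap.

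Eno3, the muscle enolase, was at 2.25 and 6.72 in WT and at 6.47 and 7.61 in KO (difference 2.55, SE 1.59). Pygm, the muscle glycogen phosphorylase that releases glucose units from glycogen, was at 0.59 and 5.10 in WT and at 4.94 and 6.09 in KO (difference 2.67, SE 1.60). Pfkm, the muscle subunit of the committed enzyme of glycolysis, phosphofructokinase, was at 0.42 and 4.25 in WT and at 4.04 and 5.25 in KO (difference 2.31, SE 1.39). All of these had their lowest level on WT replicate 1 and their highest on KO replicate 4, with WT replicate 3 slightly above KO replicate 3.

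The muscle isoforms moved as a block. From WT replicate 1 to WT replicate 3 they differed by 4.56 on average (SD over genes 0.58, range 3.83 to 5.46), although both arrays are WT. From WT replicate 3 to KO replicate 3 they differed by -0.17 (range -0.36 to 0.16), and from KO replicate 3 to KO replicate 4 by 1.08 (range 0.56 to 1.34). The mean over the 5 genes was 0.47 and 5.03 in WT and 4.87 and 5.94 in KO. The mean KO minus WT difference of 2.65 was 0.37 without WT replicate 1 and was 4.94 without WT replicate 3.

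The 33 other genes had a mean of 1.67 and 2.28 in WT and of 2.09 and 2.28 in KO, a difference of 0.22, or -0.09 without WT replicate 1. Relative to WT replicate 3, the mean of the muscle isoforms minus that of the other genes was -3.96 on WT replicate 1, 0.02 on KO replicate 3 and 0.90 on KO replicate 4. The KO minus WT value of this contrast was 2.44, against a pooled SD between arrays of 2.03, and it was 0.46 without WT replicate 1. The contrast was computed within each array, so subtracting another constant from an array leaves it as it is.

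**Figure D2:**
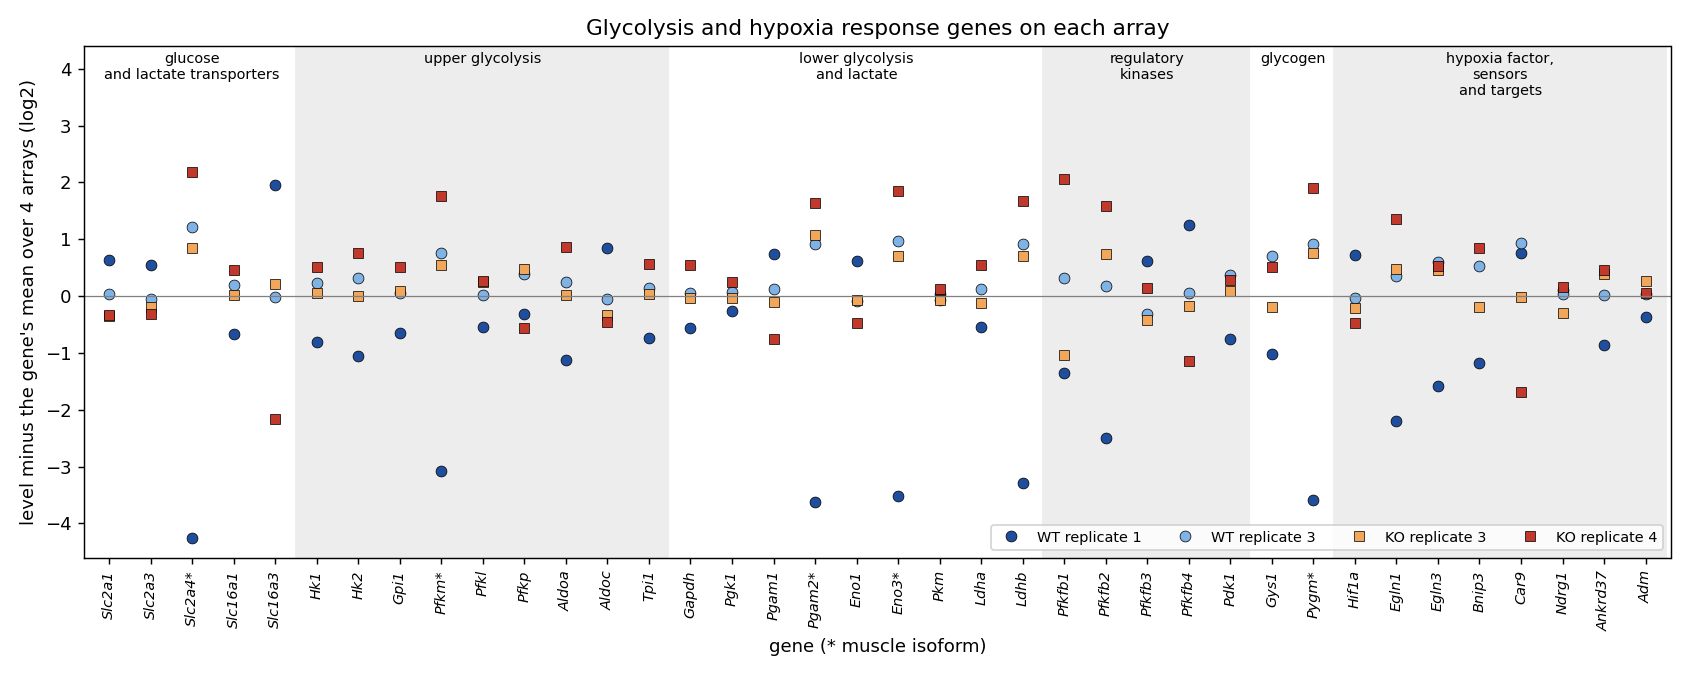
Level of each of the 38 genes on each array minus the mean of that gene over the 4 arrays (log2 units), grouped by role; circles are WT arrays, squares KO arrays and asterisks mark muscle isoforms. WT replicate 1 was lowest for 25 of the 38 genes and highest for 9, against 41.7% and 39% of all features.

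The level of the muscle isoforms moved with markers of heart muscle cells. The mean over 16 ventricular cardiomyocyte markers was 2.10 on WT replicate 1, 6.23 on WT replicate 3, 5.91 on KO replicate 3 and 6.54 on KO replicate 4, and 15 of the 16 had their lowest level on WT replicate 1. Fast skeletal muscle markers, typical of muscle outside the heart, had a mean of -3.65 and -2.50 in WT and -2.37 and -2.44 in KO over 7 measured of 10 listed, with 4 of these well above background on all arrays. These 7 did not move together: 4 were lowest on WT replicate 1 and 1 was highest there. Their KO minus WT differences ran from -1.47 to 2.47. Macrophage markers ran the other way, from 3.59 on WT replicate 1 and 2.65 on WT replicate 3 to 2.55 and 1.30 in KO, and all 15 measured of 16 listed were highest on WT replicate 1. The mean over 5 adipocyte markers measured of 6 listed was 1.58 on WT replicate 1 and -2.95 on WT replicate 3, against -1.04 and -2.87 in KO. Of these 5, 4 were highest on WT replicate 1, among them Adipoq (1.07 there and -4.89 on WT replicate 3), while Fabp4 was lowest there (5.74 and 6.69). In a bulk sample, fewer cells of a type and less RNA per cell cannot be told apart, and the part of cell make-up in these differences was not tested.

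**Figure D3:**
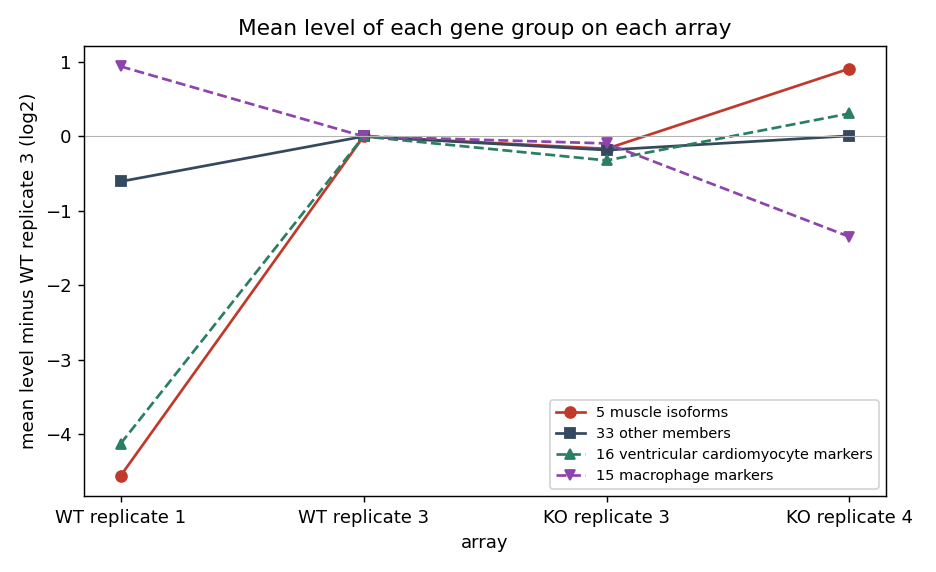
Mean level of the 5 muscle isoforms, the 33 other genes, 16 ventricular cardiomyocyte markers and 15 macrophage markers on each array, minus the mean on WT replicate 3 (log2 units); lines only join the points of a group. On WT replicate 1 the muscle isoforms lie 4.56 below WT replicate 3 and the other genes 0.61 below.

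Among the other glucose and lactate transporters, Slc2a1, Slc2a3 and Slc16a3 were highest on WT replicate 1, where Slc2a4 was lowest. Slc2a1, which encodes the widely expressed transporter GLUT1, was at 4.08 and 3.49 in WT and at 3.09 and 3.11 in KO, so both KO arrays lay below both WT arrays (difference -0.68, SE 0.36). Slc2a3, a high-affinity glucose transporter of neurons and leukocytes, was at -1.99 and -2.61 in WT and at -2.73 and -2.86 in KO (difference -0.50, SE 0.37). The ratio of Slc2a4 to Slc2a1, relative to WT replicate 3, was -6.06 on WT replicate 1, 0.03 on KO replicate 3 and 1.35 on KO replicate 4 in log2 units.

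Slc16a3, which encodes the lactate exporter MCT4, had the largest negative difference of the 38 genes. It was at 4.31 and 2.35 in WT and at 2.58 and 0.20 in KO, so the arrays numbered 3 were close and the outer arrays far apart (difference -1.94, SE 1.09). Its 2 probes differed by -1.94 and -2.01. The mean over macrophage markers had the same highest and lowest arrays, WT replicate 1 and KO replicate 4, as given above. KO replicate 4 was the lowest array for 12 of the 15 markers, and their part in the Slc16a3 values was not tested. Slc16a1, the lactate carrier MCT1, was dim, at -5.02 and -4.15 in WT and -4.33 and -3.90 in KO (difference 0.47, SE 0.45), and was not well above background on WT replicate 1.

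Among the enzymes of upper glycolysis, 7 of 9 had a higher mean in KO, against 54.8% of all features. WT replicate 1 was the lowest array for 7 of the 9, and in the arrays numbered 3 only 3 of the 9 were higher in KO. The hexokinases, which trap glucose in the cell, had differences close to each other. Hk1 differed by 0.57 (SE 0.49) and Hk2, the insulin-responsive form of muscle, by 0.75 (SE 0.61). Without WT replicate 1 these differences were 0.05 for Hk1 and 0.06 for Hk2. Hk2 was at 3.20 and 4.57 in WT and 4.26 and 5.01 in KO, so WT replicate 1 was again low. The isomerase Gpi1 was at 5.28 and 5.99 in WT and at 6.03 and 6.45 in KO, with KO above WT by 0.04 at the nearest (difference 0.61, SE 0.41).

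The phosphofructokinase subunits differed in pattern. Pfkl, the liver type, was at 0.06 and 0.63 in WT and at 0.86 and 0.87 in KO (difference 0.52, SE 0.36). Pfkp, the platelet type, was at 0.04 and 0.74 in WT and at 0.84 and -0.21 in KO (difference -0.08, SE 0.52), and its other probe differed by 0.30, so its probes disagreed in sign. Relative to WT replicate 3, the ratio of Pfkm to Pfkl was -3.27 on WT replicate 1, -0.44 on KO replicate 3 and 0.75 on KO replicate 4.

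Aldoa and Aldoc, forms of the aldolase that cleaves fructose 1,6-bisphosphate, had opposite signs. Aldoa, the muscle and general form, was at 5.26 and 6.63 in WT and at 6.39 and 7.24 in KO (difference 0.87, SE 0.62). Aldoc, the brain form, was at -0.94 and -1.85 in WT and at -2.14 and -2.26 in KO, with KO below WT (difference -0.80, SE 0.43). Tpi1, which interconverts the triose phosphates, differed by 0.60 (SE 0.46).

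Lower glycolysis split in the same way between muscle isoforms and their counterparts. Pgam1, the phosphoglycerate mutase of most tissues, was at 5.84 and 5.21 in WT and at 4.98 and 4.34 in KO, the reverse order of Pgam2 on all 4 arrays (difference -0.86, SE 0.43). Eno1, the general enolase, was at 6.07 and 5.37 in WT and at 5.39 and 4.99 in KO (difference -0.53, SE 0.41). The ratio of Pgam2 to Pgam1 relative to WT replicate 3 was -5.16 on WT replicate 1, 0.38 on KO replicate 3 and 1.59 on KO replicate 4. For Eno3 to Eno1 the ratio was -5.17, -0.28 and 1.26 on these arrays, so both ratios differed more between the WT arrays than between the genotype means.

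**Figure D4:**
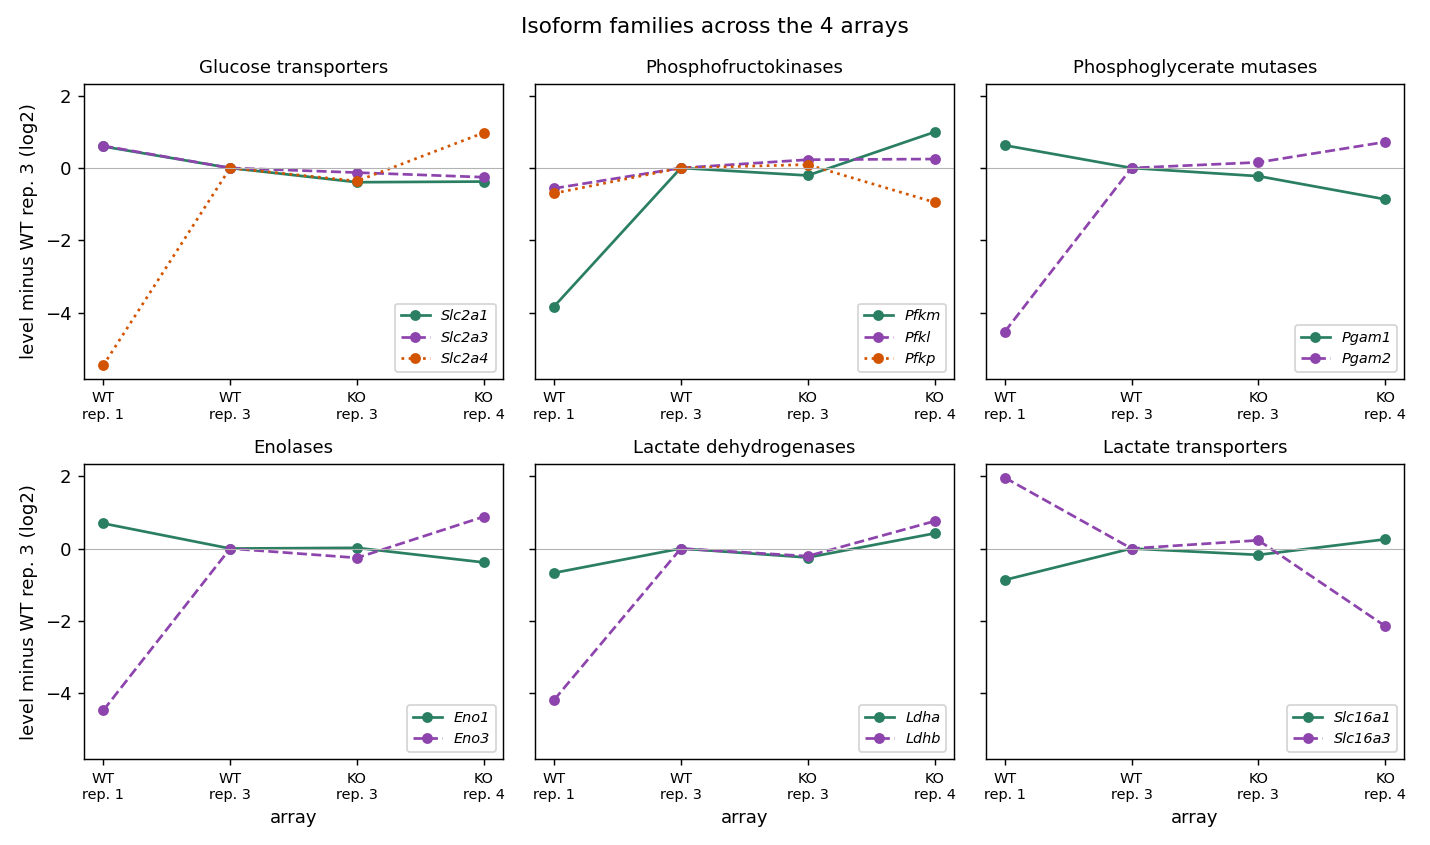
Level of each isoform minus its level on WT replicate 3 (log2 units) on the 4 arrays, by family; lines only join the points of a gene. Slc2a4, Pfkm, Pgam2, Eno3 and Ldhb lie at least 3.83 below WT replicate 3 on WT replicate 1, while Slc2a1, Pgam1, Eno1 and Slc16a3 lie above it there.

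Ldhb, the lactate dehydrogenase subunit that predominates in heart, is not among the muscle isoforms listed here but followed them closely. It was at 2.07 and 6.27 in WT and at 6.06 and 7.02 in KO (difference 2.37, SE 1.49). Ldha, the subunit typical of fast muscle and of hypoxic cells, was at 6.69 and 7.37 in WT and at 7.12 and 7.79 in KO (difference 0.42, SE 0.44). Relative to WT replicate 3, the ratio of Ldhb to Ldha was -3.52 on WT replicate 1, 0.04 on KO replicate 3 and 0.34 on KO replicate 4.

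Pkm, Pgk1 and Gapdh, expressed in most cells, spanned 0.20, 0.51 and 1.11 log2 units over the 4 arrays. Gapdh, often used as a reference gene, was at 7.05 and 7.66 in WT and at 7.57 and 8.16 in KO (difference 0.50, SE 0.42), and its 7 probes differed by 0.50 to 0.90. Pgk1, which makes the first ATP of the pathway, differed by 0.20 (SE 0.34). Pkm, the pyruvate kinase gene, was at 2.96 and 2.86 in WT and at 2.86 and 3.05 in KO, a difference of 0.05 (SE 0.31) that was -0.06 under median scaling. Whether the Pkm probe tells the splice forms of this gene apart was not determined here.

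The regulatory kinases varied in both directions. The Pfkfb genes encode the bifunctional enzymes that make or remove fructose 2,6-bisphosphate, the main activator of phosphofructokinase, and Pfkfb2 is the form of the heart. Pfkfb2 was at -3.21 and -0.53 in WT and at 0.03 and 0.88 in KO, with KO above WT (difference 2.33, SE 0.998), and without WT replicate 1 the difference was 0.99. Pfkfb4, a form induced by hypoxia, was at 1.74 and 0.54 in WT and at 0.32 and -0.65 in KO, with KO below WT (difference -1.31, SE 0.60).

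Pfkfb3, the inducible form of proliferating and hypoxic cells, was at 2.11 and 1.18 in WT and at 1.08 and 1.64 in KO (difference -0.29, SE 0.48). Pfkfb1, the form of liver and skeletal muscle, spread over 3.41 log2 units, from -1.74 and -0.06 in WT to -1.42 and 1.68 in KO (difference 1.03, SE 1.23). The spread within KO exceeded the difference between genotypes. Pdk1, which switches off pyruvate dehydrogenase, was at -0.85 and 0.28 in WT and at 0.00 and 0.20 in KO (difference 0.38, SE 0.49). Glycogen synthase, Gys1, was at -0.95 and 0.79 in WT and at -0.12 and 0.59 in KO (difference 0.32, SE 0.70).

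Genes of the oxygen-sensing pathway did not move in a single direction, and 5 of 8 had a higher mean in KO, against 54.8% of all features. Hif1a, the oxygen-regulated subunit of HIF-1, was at 2.63 and 1.87 in WT and at 1.69 and 1.42 in KO, with KO below WT (difference -0.69, SE 0.41). This is the level of its mRNA, while oxygen acts on HIF-1 chiefly through protein stability. Egln1, the main oxygen sensor that marks HIF-1 for destruction, was at -3.92 and -1.37 in WT and at -1.26 and -0.36 in KO, with KO above WT (difference 1.83, SE 0.96, or 0.56 without WT replicate 1).

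Egln3, a sensor that is itself a target of HIF-1, was at -0.61 and 1.58 in WT and at 1.43 and 1.498 in KO, so every array but WT replicate 1 lay within 0.15 log2 units (difference 0.98, SE 0.80, or -0.11 without WT replicate 1). Bnip3, a mitophagy receptor induced by hypoxia, was at 2.62 and 4.33 in WT and at 3.61 and 4.66 in KO (difference 0.66, SE 0.74, or -0.19 without WT replicate 1). Ankrd37, another target of HIF-1, was at -0.70 and 0.19 in WT and at 0.56 and 0.62 in KO, with KO above WT (difference 0.84, SE 0.43). For these genes, too, WT replicate 1 was the lowest array.

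Car9, the carbonic anhydrase widely used as a marker of hypoxic cells, had the smallest unadjusted p of the 38 genes, 0.0537 in limma (adjusted p = 0.740). It was at -1.45 and -1.25 in WT and at -2.20 and -3.87 in KO (difference -1.69, SE 0.64, 95% interval -3.42 to 0.04). Its WT arrays were close to each other and its KO arrays were not. Without KO replicate 4 the difference was -0.85, and without WT replicate 1 it was -1.79.

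Ndrg1, a stress gene induced by hypoxia, was at 1.91 and 1.85 in WT and at 1.51 and 1.96 in KO (difference -0.14, SE 0.34). Adm, which encodes the vasodilator peptide adrenomedullin, was at -0.28 and 0.12 in WT and at 0.35 and 0.14 in KO (difference 0.33, SE 0.34), with KO above WT by 0.03 at the nearest. Known hypoxia targets therefore had both signs. Slc2a1, Slc16a3, Pfkfb3, Pfkfb4, Car9 and Ndrg1 had a lower mean in KO. This sign turned for Pfkfb3 without WT replicate 1 and for Ndrg1 without KO replicate 3. Egln3, Bnip3, Ankrd37, Adm, Ldha and Pdk1 had a higher mean in KO, which turned for Egln3, Bnip3 and Pdk1 without WT replicate 1. Other glycolytic enzymes were not counted here.

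Most members shared an order of the arrays that most features also had. For 28 of the 38 genes, WT replicate 1 and KO replicate 4 were the outermost arrays, in either direction, with the arrays numbered 3 between them, against 58.1% of all features. These outermost arrays also lay at positions 4 and 1 of the slide. Their 75th percentiles of log2 signal were the highest, 10.12 (WT replicate 1), and the lowest, 9.27 (KO replicate 4). The part of position and brightness in this order was not tested. A range of at least 2 log2 units over the 4 arrays was seen for 14 of the 38 genes, against 19.9% of all features. The arrays numbered 3 differed by at most 1.36 for any of the 38 genes (Pfkfb1), with a median difference of -0.18.

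Genes of the same pathways outside the 38 were read from lists chosen with earlier results of these data known. Of 105 such genes, 93 were measured. limma called 0 of them, and 4 had an unadjusted p under 0.05, against 2.76% of all features. The mean was higher in KO for 55 and lower for 38, with a median of 0.26, against 54.8% of all features that were higher. The genotypes did not overlap for 32 of the 93, against 34.4% of all features.

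Pyruvate dehydrogenase, which converts pyruvate inside mitochondria, and its regulators were listed with the pyruvate carriers Mpc1 and Mpc2 and the carboxylase Pcx. Of these 13 genes, 12 had a higher mean in KO, with a median difference of 1.43 over the list. On WT replicate 1, 12 of the 13 were lowest. Pdha1, the catalytic subunit of the dehydrogenase, was at 1.20 and 3.84 in WT and at 3.44 and 4.48 in KO (difference 1.44, SE 1.01). Pdk4, the kinase that shuts the complex during fatty acid use, was at 0.97 and 4.63 in WT and at 3.47 and 4.04 in KO (difference 0.96, SE 1.29, or -0.88 without WT replicate 1). Pdk3 was the exception in sign (difference -1.06, SE 0.48). Without WT replicate 1, 11 of the 13 were higher in KO. In the arrays numbered 3, 1 of the 13 genes was higher in KO (Pcx, by 0.07).

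Further glycogen genes were higher in KO for 11 of 16 measured, with a median of 0.63, and for 8 of 16 without WT replicate 1. Among them Ppp1r3c, a subunit that brings protein phosphatase 1 to glycogen, was at -0.64 and 1.95 in WT and at 2.45 and 2.999 in KO (difference 2.07, SE 0.95), and Pygb, the brain form of glycogen phosphorylase, differed by 1.64 (SE 1.01). For both, the KO arrays lay above the WT arrays, and WT replicate 1 was the lowest array. Genes of the pentose phosphate pathway, which makes NADPH, ran the other way: 6 of 8 were lower in KO and highest on WT replicate 1. In the arrays numbered 3, 5 of these 8 genes were higher in KO. G6pdx, its entry enzyme, was at 2.17 and 0.96 in WT and at 0.84 and -0.05 in KO (difference -1.17, SE 0.59).

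Of 16 other glycolytic genes 13 were measured, and 8 of these were well above background on all arrays. Hk3, a hexokinase of leukocytes, was at -1.51 and -2.38 in WT and at -3.72 and -4.43 in KO, with KO below WT (difference -2.13, SE 0.49, unadjusted p = 0.00970 and adjusted p = 0.740 in limma). All 15 macrophage markers also had a lower mean in KO. In the arrays numbered 3, however, 9 of these 15 markers were higher in KO, while Hk3 was lower. Their part in the Hk3 difference was not tested. Slc16a7, the lactate and pyruvate carrier MCT2, was at 0.69 and 1.94 in WT and at 2.49 and 3.79 in KO (difference 1.83, SE 0.68).

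Among further hypoxia targets, 10 of the 21 measured were higher and 11 lower in KO, with a median of -0.08, and 7 had both KO arrays below both WT arrays and 2 above, against 16.1% and 18.3% of all features. Hmox1, which encodes the haem-degrading enzyme heme oxygenase 1, was at 4.51 and 2.85 in WT and at 1.45 and -0.01 in KO (difference -2.96, SE 0.81). Vegfa, the main HIF-driven growth factor for vessels, was at 0.33 and 1.74 in WT and at 1.79 and 2.30 in KO (difference 1.01, SE 0.59). Epas1, which encodes HIF-2 alpha of endothelial and other cells, was at 4.31 and 5.52 in WT and at 5.26 and 6.13 in KO (difference 0.78, SE 0.59). The adjusted p was 0.740 for each of these in limma.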

How the data were processed

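RNA of 2 WT and 2 KO heart samples was measured on 1-colour Agilent arrays. The scanner intensity (processed signal) was background-subtracted and spatially detrended per the file headers, which name Feature Extraction 11.0.1.1 (version 9.1 per the submitters' processing notes). Flags for background, saturation and outliers, other values per the file headers, were taken over unchanged. The deposited log2 table had been normalized between arrays (method not given in the sources used here) and served as an alternative; its medians on the 4 arrays were 6.12.

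Control and outlier spots were left out, no spot was saturated, repeated spots of a probe were averaged as log2 values, and the 75th percentile of each array was subtracted. Of 39429 probes, 27234 were named through 1 RefSeq symbol (GRCm38.p6 table), 0 had several and 12195 had none and kept their array identifier. No coordinates on the arrays' own build, mm9, were used. A probe was kept if 2 or more of the 4 arrays had it well above background. Genotypes were compared with lmFit and eBayes of limma 3.58.1 (R 4.3.3) in a two-sided test. The p-values were adjusted by Benjamini-Hochberg over every feature tested, and features were called under 0.05. The code of the fit was also run on simulated data with the same spread for all features. Real features differ in spread, so that run does not show what the test can detect here. Members and lists were chosen with earlier results of these data known, so no p was computed over the list. All members are named. Of each list of other pathway genes, the named genes come from the 3 of smallest unadjusted p, with Vegfa, Epas1, Pdk4 and Pdha1; of the marker lists, Adipoq and Fabp4 were named after their values were seen. The values of 1 gene that this rule names are not reported here. Alternatives were other scalings, filters, background corrections, probe and test choices, and leaving out each array.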

Additional observations from a re-analysis of the deposited data

How the results depend on the processing

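The count of features called was 0 under every alternative run, also at an adjusted p under 0.10 and without each array. The smallest adjusted p over these settings was 0.132, without WT replicate 3, where 15 of the 38 genes had an unadjusted p under 0.05, against 18.5% of all features. Scaling moved the features with an unadjusted p under 0.05 from 323 higher and 310 lower to 251 and 405 with median scaling. Among the 38 genes, this limma count rose from 0 to 1 (Car9) with median scaling, against 656 of 22931 features. It was 1 of 37 genes (Car9) with only probes well above background on all 4 arrays, against 418 of 17234 features. With normexp on median signals it was 2 (Car9 and Pfkfb2), against 668 of 22925 features. The muscle isoform difference was 2.54 to 2.65 under the scalings, filters and background corrections, and 0.37 to 4.94 when 1 array was left out. That of the other genes was 0.11 to 0.25 and -0.09 to 0.52, and that of the contrast 2.40 to 2.45 and 0.46 to 4.42; over medians of the members the contrast was 3.15. In the arrays numbered 3 alone, chosen after seeing the data, these 3 values were -0.17, -0.18 and 0.0170, and 11 genes were higher in KO. The count of 26 genes higher in KO was 23 to 27 without 1 array.

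Of 39 genes (the 38 and S1pr1), 30 kept the sign of their difference in every fit. The sign turned for Pfkp with the mean of its probes (0.11), and for Pkm with median scaling (-0.0642) and normexp on median signals (-0.0352). With 1 array left out, the difference ranged from -0.60 to 0.44 for Pfkp, turning without WT replicate 3 or KO replicate 4, and from -0.0525 to 0.14 for Pkm, turning without the same arrays. It turned without WT replicate 1 for Pfkfb3 (range -0.76 to 0.17), Pdk1 (-0.18 to 0.95), Egln3 (-0.11 to 2.07), Bnip3 (-0.19 to 1.52) and Gys1 (-0.55 to 1.19, also without KO replicate 4). Pfkfb1 (-0.52 to 2.57) turned without KO replicate 4 and Ndrg1 (-0.37 to 0.0846) without KO replicate 3. The cause was not tested. With an array left out, the lone sample of its genotype is assumed to vary like the others.

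Normexp on mean signals was not run, since the files used here give median signals. No paired analysis was possible because the genotypes share only 1 replicate number. Signal over background limits dim genes such as Slc16a1, most of all on WT replicate 1. The lowest level well above background was -4.39 on that array, against -6.50 to -7.08 on the others. Egln1, at -3.92 on WT replicate 1, lay close to this limit.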
